A study of Mus musculus with 6 samples.

Results

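The contractile apparatus of smooth muscle was examined through 10 genes, *Acta2*, *Tagln*, *Myh11*, *Cnn1*, *Myl9*, *Mylk*, *Smtn*, *Lmod1*, *Cald1* and *Tpm2*. They were taken by current or older symbol from the annotation of Illumina MouseWG-6 v2.0 arrays, which gave 29 probes for the 10 genes out of 45277 usable probes and 19057 named genes. Whole-kidney RNA of E15.5 embryos had been hybridized to 6 arrays, with 1 control and 1 mutant array from each of 3 litters. For each array the kidneys of 2 embryos of a genotype were pooled before extraction, and the numbered litter was used as a block. The mutants were *FoxD1GC;Dicer fl/fl* embryos, labelled FoxD1;Dicer. *FoxD1GC* is a knock-in at *Foxd1*, a gene of renal stromal cells, so that Cre fused to eGFP is made where *Foxd1* is transcribed. Its strain background was 129-Elite. The floxed *Dicer1* line is of C57BL/6J origin, and deletion of the gene blocks the maturation of miRNAs in the stroma and its descendants. Controls were Cre-negative littermates whose *Dicer1* alleles the sources used here do not specify, so the *FoxD1GC* allele itself and the loss of *Dicer1* cannot be told apart here.

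Smooth muscle cells shorten when myosin filaments pull on actin filaments. Calcium and calmodulin activate myosin light chain kinase, which phosphorylates the regulatory light chain of myosin, while tropomyosin, caldesmon and calponin lie along the actin filament and modulate its access to myosin. Many genes of this apparatus are driven by serum response factor (SRF) and its partner myocardin through the CArG box, a short element with a core of A and T bases. In the developing kidney the products mark arterial and arteriolar smooth muscle, the muscle coat of the ureter and pelvis and, for smooth muscle actin, also pericytes and activated stromal cells. The *Foxd1* lineage supplies the vascular smooth muscle and pericytes of the kidney.

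Of the 29 probes, 14 were detected on all 6 arrays (detection p-value under 0.05 against negative control beads) and 7 on none. The 18 probes detected on at least 3 arrays were tested, and they represent 7 of the 10 genes. *Tagln*, the gene of the actin-binding protein transgelin (SM22), had probes detected on 2 arrays and 0 arrays. *Cnn1*, which encodes smooth muscle calponin, had 1 probe, detected on 1 array. *Lmod1*, the gene of the actin filament nucleator leiomodin, had 1 probe, detected on 0 arrays. Bead signals of the 11 untested probes ran from 86.6 to 143.2, around the array medians, which were 106.3 to 123.7. No fold is given for these 3 genes, because both groups sat at the background, and a probe that stays dim does not show that its transcript was absent.

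**Figure D1:**
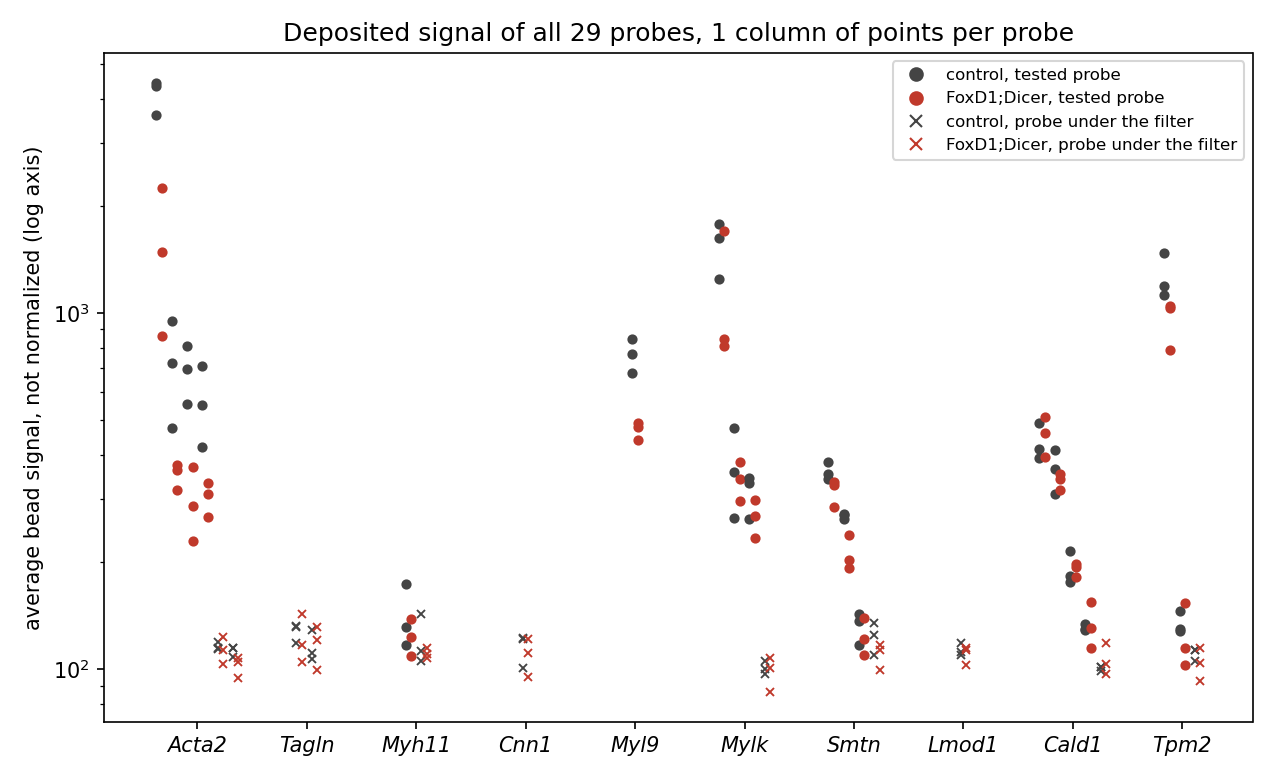
Deposited average bead signal (log axis, arbitrary units) of all 29 probes in the 3 control arrays (black) and the 3 FoxD1;Dicer arrays (red), grouped by gene, with circles for tested probes and crosses for probes under the detection filter. On this scale the 4 tested *Acta2* probes and the *Myl9* probe show every mutant array under every control array. So do the brightest *Tpm2* probe and the brightest and second *Smtn* probes. After normalization the groups overlap at the brightest *Tpm2* and *Smtn* probes. Both *Tagln* probes and the *Cnn1* and *Lmod1* probes stay between 94.9 and 143.2.

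The largest difference among the 10 genes was in *Acta2*, the actin isoform of smooth muscle thin filaments. Its brightest probe had bead signals of 4349, 3588 and 4415 in the controls of litters 1, 2 and 3, and of 2240, 1480 and 863 in the mutants. After background correction, quantile normalization and log2, the controls were at 11.93, 11.65 and 11.88 and the mutants at 11.02, 10.64 and 10.001. The mutant array was therefore lower in each of the 3 litters, by -0.91, -1.01 and -1.88 on the log2 scale, and the groups did not overlap. Controls averaged 11.82 ± 0.15 and mutants 10.55 ± 0.51 (SD, n = 3 arrays each). The log2 fold change of -1.27, which is 41.6% of the control level, had a standard error (SE) of 0.25, a 95% confidence interval from -1.87 to -0.66, an unadjusted p of 0.00172 and an adjusted p of 0.76 from limma. *Acta2* thus did not pass after adjustment over 18639 probes, and its *B*-statistic (the log odds of a difference) of -2.25 was under the threshold of 0 named by the study's methods. It is an entry of the study's own E15.5 gene list. By the study's methods that list holds genes with *B* above 0, a threshold *Acta2* did not reach in the present fit. The cause of this discrepancy was not tested. The list was chosen on these same arrays, so the direction of the difference in *Acta2* is not independent evidence.

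The other tested *Acta2* probes were also lower in the mutant in every litter. A second probe had log2 values of 9.14, 8.74 and 9.26 in controls and 7.94, 7.86 and 7.45 in mutants, with a log2 fold change of -1.30 (SE 0.24, limma adjusted p = 0.71). The remaining probes had log2 fold changes of -0.90 (SE 0.29) and -0.82 (SE 0.25), each with an adjusted p of 0.86 from limma. Although all 4 probes agreed in sign, they ranked the litters differently. The first pair was lowest in litter 3, by -1.88 and -1.81, whereas the second pair was lowest in litter 1, by -1.68 and -1.44, and differed in litter 3 by -0.62 and -0.49. Pearson's r between probes over the 6 arrays ran from 0.66 to 0.99. A further 2 probes annotated to *Acta2* were detected on 0 arrays, with signals of 94.8 to 123.1.

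The arrays differed in other ways than genotype, and *Acta2* was read beside them. Relative to the median of undetected probes, the 95th percentile of bead signal was 7.90 and 7.91 times as high on the litter 2 and litter 3 mutants, but 9.45 to 10.5 times as high on the other 4 arrays. With arrays scaled to one median in place of quantile normalization, the log2 fold change of *Acta2* was -1.59 (adjusted p = 0.000187 from limma), while the median of all tested probes moved to -0.22. That fit gave each of the 7 tested genes the same SE of 0.298, so the spread of the single probe did not enter this adjusted p. Between arrays of like *Xist* level the *Acta2* difference was -1.61 (1 control and 2 mutants with high *Xist*) and -0.75 (2 controls and 1 mutant with low *Xist*), without a test. *Xist* is the RNA that coats the inactive X in female cells, and its mutant minus control difference was -5.10, 4.82 and 5.03 in litters 1, 2 and 3. *Eif2s3y* and *Kdm5d*, genes of the Y chromosome, were detected on all 6 arrays. On the high-*Xist* arrays *Eif2s3y* was at 9.20 (litter 1 control), 8.89 and 8.02 (litter 2 and 3 mutants). Among the high-*Xist* arrays, like *Xist* level is therefore not a like mix of sexes. On the low-*Xist* arrays *Eif2s3y* was closer, at 9.94 and 10.06 (litter 2 and 3 controls) and 9.99 (litter 1 mutant). *Kdm5d* was at 7.91, 7.96 and 8.06 on the same arrays. The log2 fold change of *Acta2* was -0.96 without litter 3. In whole kidney RNA, fewer cells of a type and less RNA per cell cannot be told apart.

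*Myl9*, which encodes the regulatory light chain of smooth muscle myosin, was measured by 1 probe. Its bead signals were 848, 678 and 768 in the controls of litters 1, 2 and 3 and 491, 480 and 439 in the mutants. The log2 values were 9.46, 9.09 and 9.17 in controls and 8.48, 8.87 and 8.83 in mutants. All mutants were thus below all controls, with differences of -0.98, -0.22 and -0.35 by litter. Means of 9.24 ± 0.20 (SD, n = 3 arrays) and 8.73 ± 0.21 (SD, n = 3) gave a log2 fold change of -0.52 (SE 0.23, 95% confidence interval -1.06 to 0.03, limma adjusted p = 0.86). The difference was -0.62 between arrays with high *Xist* and -0.65 between those with low *Xist*, and the fit without litter 1 gave -0.28.

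**Figure D2:**
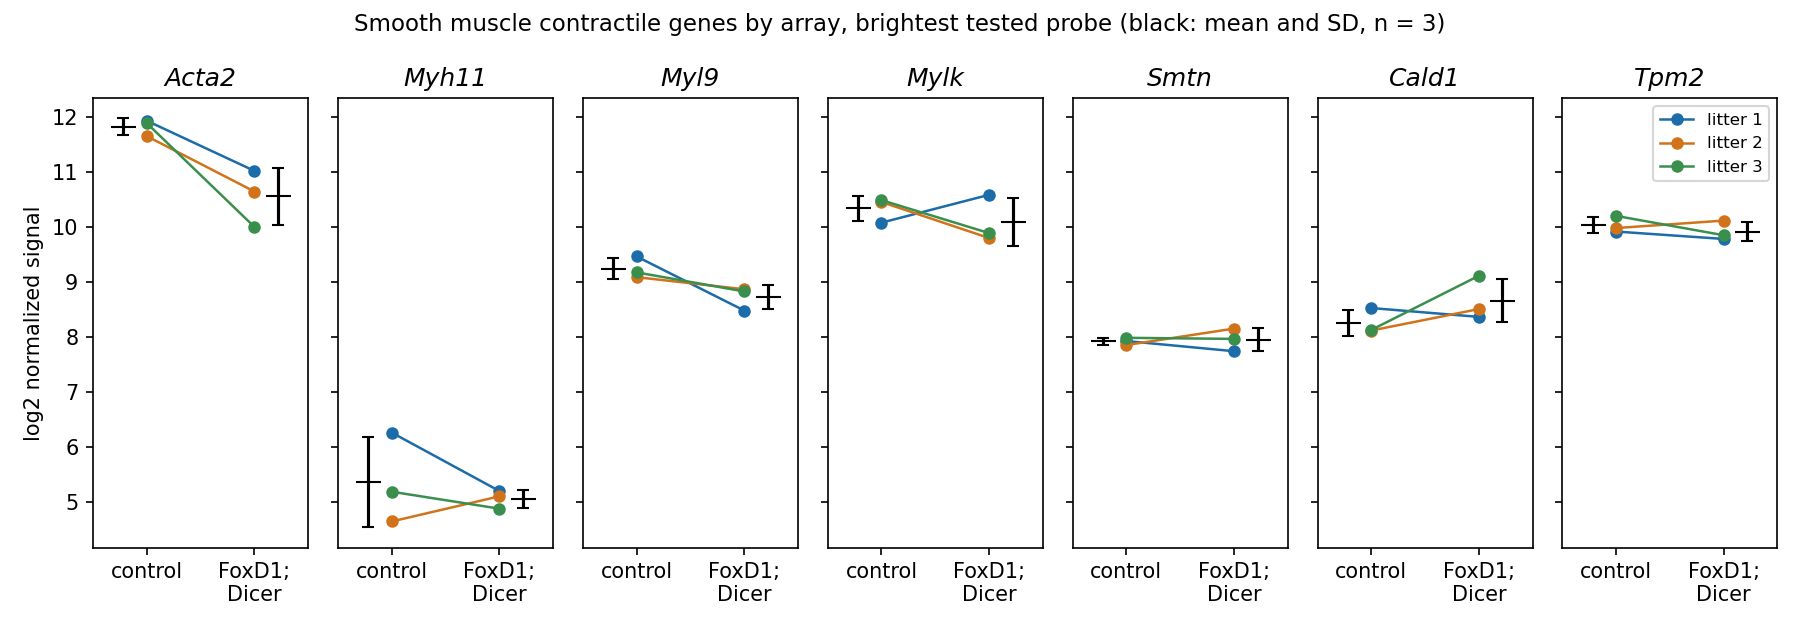
Log2 normalized signal of the brightest tested probe of each of the 7 tested genes in control and FoxD1;Dicer kidneys, with lines joining the arrays of a litter and black bars for the mean and SD of 3 arrays. *Acta2* and *Myl9* are lower in mutants in all 3 litters, while the lines of the other genes cross or run both ways.

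*Acta2* and *Myl9* were also the 2 genes of the 8 with a promoter in the RefSeq table (GRCm38.p6) that held CArG boxes. The search took CC, 6 bases of which at most 1 was G or C, then GG, in the window from 250 bases before to 50 after the annotated start. The element reads the same way on both strands, so 1 strand covers both. Each of the 2 promoters held 2 such boxes, whereas *Cnn1*, *Mylk*, *Smtn*, *Lmod1*, *Cald1* and *Tpm2* held 0 in this window. Of 32851 promoters in the table, 9.98% held at least 1 box, 0.822% held 2 or more, and 1.63% held a box without G or C in its core. Bases are numbered from the start, with -1 the last base before it. The *Acta2* boxes lie at -84 to -75 and -34 to -25. The *Myl9* boxes lie at -161 to -152 and -99 to -90. The 180 bases before each start are printed because these 2 had the lowest log2 fold changes among the 7 tested genes of the 10, and capitals mark the boxes.
Acta2 promoter, chr19:34255374-34255553, minus strand: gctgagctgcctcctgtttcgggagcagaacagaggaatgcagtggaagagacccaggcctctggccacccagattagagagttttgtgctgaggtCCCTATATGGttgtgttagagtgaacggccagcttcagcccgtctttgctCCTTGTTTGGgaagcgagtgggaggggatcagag
Myl9 promoter, chr2:156775284-156775463, plus strand: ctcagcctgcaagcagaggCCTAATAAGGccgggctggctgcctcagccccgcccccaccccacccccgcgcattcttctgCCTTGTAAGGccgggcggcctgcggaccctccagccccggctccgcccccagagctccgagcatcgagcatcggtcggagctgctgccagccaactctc
Only CCTAATAAGG of *Myl9* has a core without G or C, and the other 3 boxes, CCCTATATGG, CCTTGTTTGG and CCTTGTAAGG, carry 1. A match of letters is not a measured binding site. Over all tested genes with a promoter in the table, the median log2 fold change was -0.06 for the 908 with a box and -0.04 for the 7581 without. *Tagln* and *Myh11* were not in the promoter table.

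The kinase and the heavy chain of smooth muscle myosin did not share a direction across litters. The brightest probe of *Mylk*, the gene of myosin light chain kinase, was at 10.08, 10.45 and 10.49 in controls and at 10.58, 9.80 and 9.89 in mutants. It was thus higher in the mutant of litter 1 by 0.51 and lower in litters 2 and 3 by -0.65 and -0.60, with a log2 fold change of -0.25 (SE 0.28, 95% confidence interval -0.91 to 0.42, limma adjusted p = 0.91). The 2 dimmer *Mylk* probes ran the other way, lower in litter 1 and higher in litters 2 and 3, with log2 fold changes of 0.20 and -0.06. The sources used here do not say whether the *Mylk* probes cover the same transcripts. *Myh11*, the heavy chain gene by which mature smooth muscle is usually recognised, was tested by 1 probe, detected on 4 of 6 arrays. Its bead signals were 173, 117 and 132 in controls and 138, 124 and 109 in mutants, close to the array medians. The *Myh11* differences by litter were -1.06, 0.46 and -0.31, and the log2 fold change of -0.30 (SE 0.30, limma adjusted p = 0.90) had an interval from -1.03 to 0.42. A second *Myh11* probe, detected on 2 arrays with signals of 105.5 to 142.8, was not tested, and its litter differences were -0.03, -0.70 and 0.33.

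Among the genes of actin-associated proteins, *Cald1*, *Tpm2* and *Smtn* were tested, and their probes did not share a direction. *Cald1*, which encodes caldesmon, had log2 values of 8.53, 8.12 and 8.13 in controls and 8.37, 8.51 and 9.11 in mutants at its brightest probe. The highest value was that of the litter 3 mutant and the groups overlapped, with a log2 fold change of 0.40 (SE 0.26, 95% confidence interval -0.22 to 1.03, limma adjusted p = 0.86). The other 3 tested *Cald1* probes had log2 fold changes of 0.17, 0.27 and 0.22, so all 4 probes were positive, and 1 of them was higher in every litter. *Cald1* is also transcribed as a nonmuscle isoform in many cell types, and the sources used here do not say which isoforms these probes read.

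*Tpm2*, which encodes the β-tropomyosin found in smooth and striated muscle, was at 9.92, 9.98 and 10.20 in controls and at 9.78, 10.11 and 9.85 in mutants. These ranges overlapped, and the log2 fold change was -0.12 (SE 0.21, 95% confidence interval -0.61 to 0.37, limma adjusted p = 0.94). A dimmer probe, detected on 3 arrays, gave -0.12 as well, but with differences of -0.58, 1.14 and -0.92 by litter. *Smtn*, the gene of the actin-associated protein smoothelin, had its brightest probe at 7.93, 7.85 and 7.99 in controls and at 7.74, 8.15 and 7.97 in mutants, with a log2 fold change of 0.03 (SE 0.21, 95% confidence interval -0.46 to 0.52, limma adjusted p = 0.99). A second *Smtn* probe was at 7.33, 7.39 and 7.30 in controls and at 6.98, 7.04 and 6.97 in mutants. That probe was lower in every litter without overlap, by a log2 fold change of -0.34 (SE 0.19, limma adjusted p = 0.86), and the last, detected on 4 arrays, had one of -0.13. The probes of *Smtn* therefore did not give a common value.

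**Figure D3:**
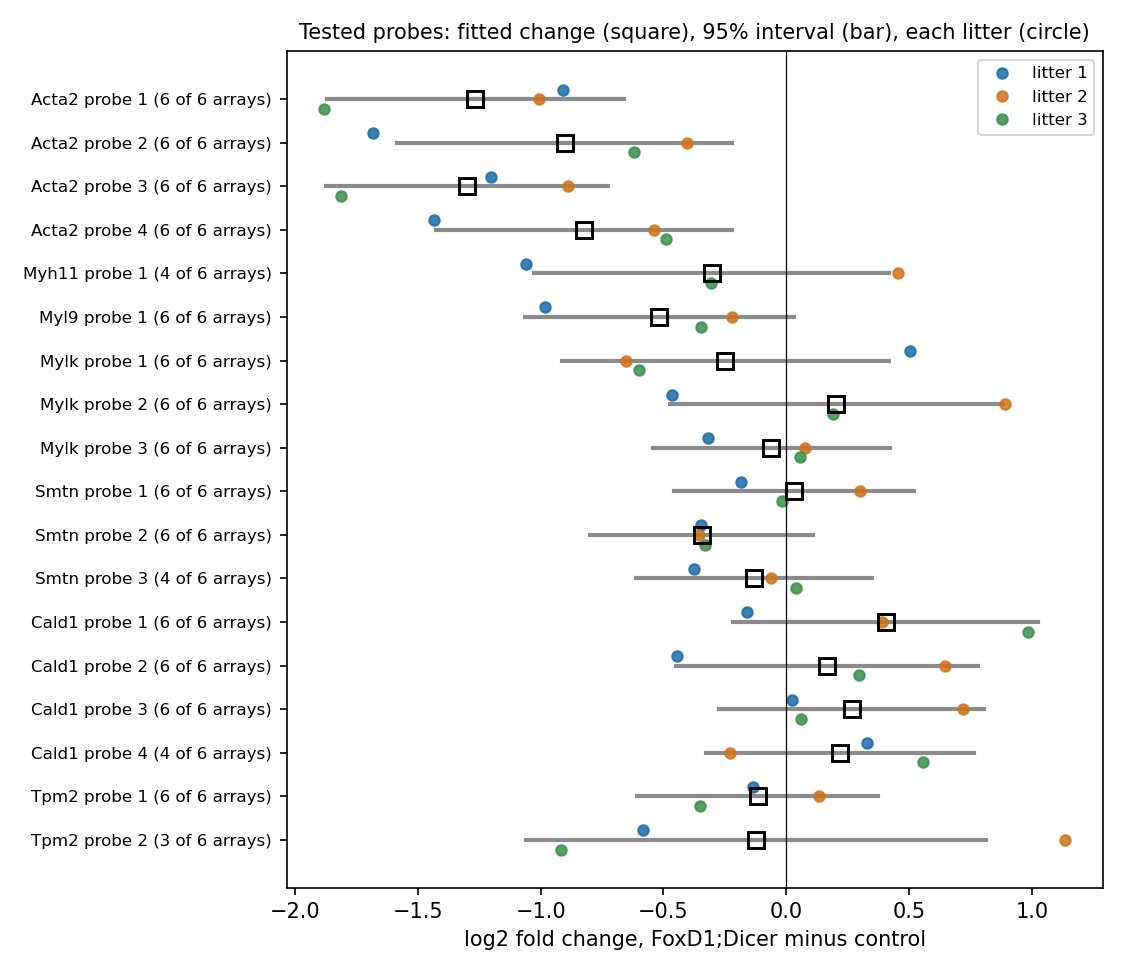
Log2 fold change (FoxD1;Dicer minus control) of each of the 18 tested probes, with the fitted value (square), its 95% confidence interval (bar) and the difference within each litter (circles). The intervals of the 4 *Acta2* probes lie below 0, those of all other probes include 0, and all 4 *Cald1* squares lie above 0.

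Counted once per gene by the brightest tested probe, 5 of the 7 tested genes were lower in mutants and 2 higher, with a median log2 fold change of -0.25 against -0.04 over all 10474 tested genes. The median turned to 0.03 when arrays were weighted by their quality, and was -0.11 with the series-matrix values or without background correction. Without the filter on dim probes it was -0.11 over 10 genes, *Tagln*, *Cnn1* and *Lmod1* included. By litter the median of the 7 genes was -0.18, 0.14 and -0.35, so litter 2 did not share the direction. Over all tested genes it was -0.006, -0.02 and -0.11. None of the 7 genes had *B* above 0 in limma with litter, where the share over all 18639 probes was 0%, although 1028 of those probes had an unadjusted p under 0.05. *Acta2* was 1 of 7 genes lower with an unadjusted p under 0.05, against 3.23% of all tested genes, and 0 were higher, against 2.13%, although *Cald1* was higher at that level with array weights and without litter 1. *Acta2* and *Myl9* were the 2 of 7 lower in every litter, a pattern of 15.4% of all tested genes, and 0 of 7 were higher in every litter, against 9.86%. The same 2 genes had all mutants below all controls, as had 8.23% of all tested genes. Over 7 genes these shares do not set the group apart. Probes that had to be detected on 3 arrays are not all of the group, and 3 genes give no value.

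The remaining parts of the contractile apparatus were followed through 25 other genes of filaments, dense bodies and anchors, of which 19 were tested. In this list 10 were lower and 9 higher, with a median log2 fold change of -0.04. At an unadjusted p under 0.05 in limma, where 3.23% of all tested genes were lower, the 1 gene of this list was *Pdlim3*. It encodes an α-actinin-binding protein of dense bodies and Z lines. Controls averaged 7.32 ± 0.08 and mutants 6.51 ± 0.24 (SD, n = 3 arrays each), with differences of -0.55, -0.68 and -1.17 by litter and a log2 fold change of -0.80 (SE 0.22, limma adjusted p = 0.86). *Vcl* (vinculin, an anchor of actin at the membrane) and *Csrp1* (a LIM protein of smooth muscle) were the other 2 of 3 genes lower in every litter, with log2 fold changes of -0.28 and -0.31. These 3 of 19 were near the share of 15.4% of all tested genes lower in every litter. *Des*, the intermediate filament gene desmin, differed by 0.70, -0.11 and -1.07 in litters 1, 2 and 3. Promoters of this list held a CArG box in 9 of 20 genes. Of the 7 tested ones with a box, 4 were lower (*Pdlim3*, *Vcl*, *Fhl1* and *Lpp*) and 3 higher (*Myl6*, *Synm* and *Itga5*).

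Genes that set contraction, rather than carry it out, held the lowest value among the 4 related lists. Of 24 genes of channels, receptors, kinases and phosphatase subunits, 12 were tested, with 6 lower, 6 higher and a median of -0.12. An unadjusted p under 0.05 was reached by 4 lower genes and 1 higher gene, where the shares over all tested genes were 3.23% and 2.13%. *Abcc9*, the sulfonylurea receptor subunit of vascular ATP-sensitive potassium channels, was lower by -1.12, -0.83 and -0.997 in litters 1, 2 and 3 (fitted log2 fold change -0.98, SE 0.20, limma adjusted p = 0.76). *Kcnj8*, the pore subunit of the same channel, had a log2 fold change of -0.54 (SE 0.22). *Agtr1a*, the type 1 angiotensin II receptor, had one of -0.85 (SE 0.28), and *Prkg1*, the cGMP-dependent kinase that relaxes smooth muscle, one of -0.56 (SE 0.20). These 3 were also lower in every litter, each with an adjusted p of 0.86 from limma. *Gucy1a1* and *Gucy1b1*, which encode the subunits of the nitric oxide receptor that makes cGMP, were lower in every litter as well, by log2 fold changes of -0.50 and -0.32. In all, 6 of the 12 were lower and 2 higher in every litter, against 15.4% and 9.86% of all tested genes. A CArG box was held by 1 of the 18 genes of this list with a promoter in the RefSeq table, *Cacna1c*, which was not tested. *Ppp1r14a*, the gene of the myosin phosphatase inhibitor CPI-17, was higher in each litter, by 0.91, 0.53 and 0.81 (fitted log2 fold change 0.75, SE 0.20, limma adjusted p = 0.86).

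Regulators of smooth muscle genes went both ways. Of 32 transcription factors and signals, 24 were tested, with 10 lower, 14 higher and a median log2 fold change of 0.05. *Srf*, the factor that binds CArG boxes, had differences of 0.10, -0.30 and -0.24 by litter and a log2 fold change of -0.15 (SE 0.20, limma adjusted p = 0.93). *Myocd*, its myocardin cofactor, was detected on 1 control and 3 mutant arrays, with bead signals of 119.2 to 139.9 near the background, and had a log2 fold change of 0.38 (SE 0.24). It passed the filter through the mutant arrays, while the related cofactors *Mrtfa* and *Mrtfb* did not pass the filter. *Gata6*, a factor of smooth muscle identity, was higher in every litter by 0.32, 0.37 and 0.34 (fitted log2 fold change 0.35, SE 0.19, limma adjusted p = 0.86). *Tgfb1*, a ligand that induces smooth muscle actin in many mesenchymal cells, was the 1 regulator with an unadjusted p under 0.05, at 0.48 (SE 0.20, limma adjusted p = 0.86).

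The relatives of the 10 genes, nonmuscle or of other muscle, went both ways. Of 20 relatives, 12 were tested, 6 lower and 6 higher with log2 fold changes from -0.29 (*Cnn2*) to 0.52 (*Smtnl2*), and 0 had an unadjusted p under 0.05 in limma. *Actb*, the cytoplasmic β-actin, averaged 12.91 ± 0.08 in controls and 12.96 ± 0.05 in mutants (SD, n = 3 arrays each), against the -1.27 of *Acta2*. *Myh9* and *Myh10*, the nonmuscle myosin heavy chains, had log2 fold changes of -0.15 and 0.38. *Tagln2* and *Cnn2*, the relatives of *Tagln* and *Cnn1*, had 0.39 and -0.29, and the tropomyosin genes *Tpm3* and *Tpm4* had 0.42 and -0.06.

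Other muscle actins are close to *Acta2* in sequence. *Actg2*, the actin of visceral smooth muscle, differed by 1.01, -0.02 and -1.56 in litters 1, 2 and 3, a log2 fold change of -0.19 (SE 0.45). *Actc1*, the cardiac actin, was lower in every litter by -0.92, -0.16 and -1.61, with a log2 fold change of -0.90 (SE 0.30, limma adjusted p = 0.86). *Acta1*, the skeletal actin, was at 0.32 (SE 0.54). Probe sequences were not part of the sources used here, so whether the *Acta2* probes also read its relatives was not tested.

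**Figure D4:**
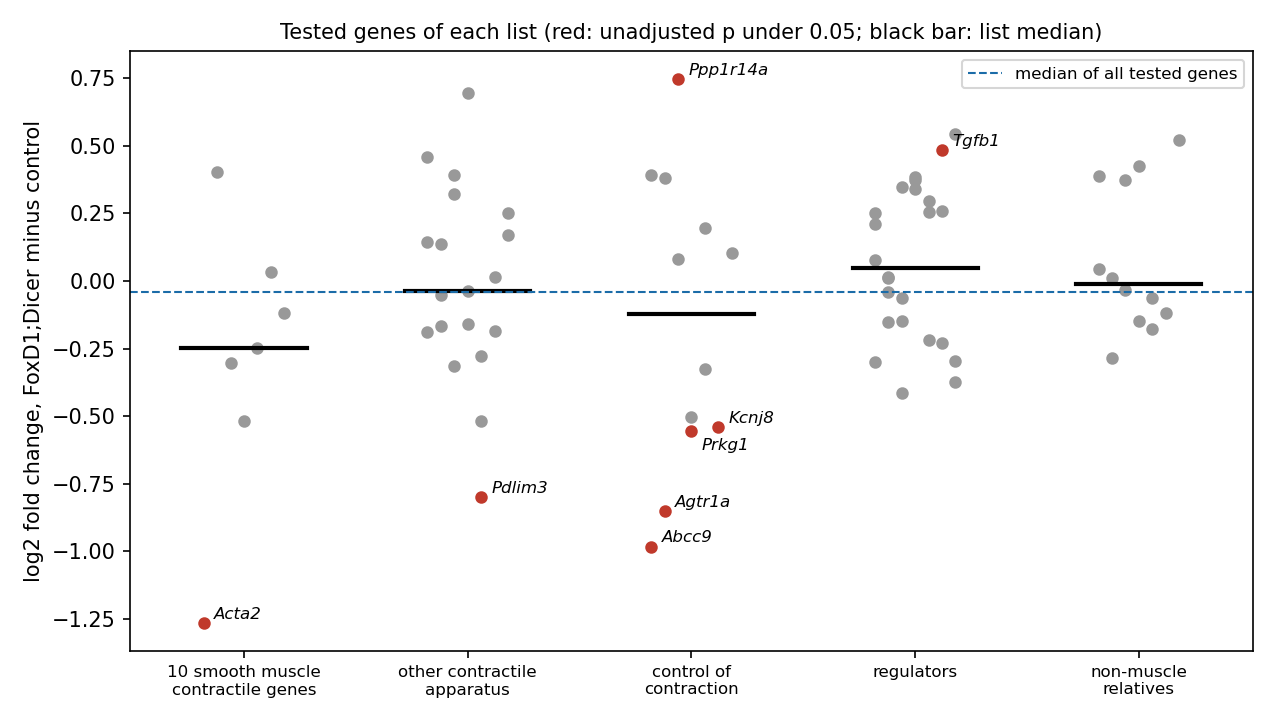
Log2 fold change (FoxD1;Dicer minus control) of every tested gene in the group of 10 contractile genes and in 4 related lists, with 1 point per gene, black bars for list medians and a dashed line for the median of all tested genes. Red points have an unadjusted p under 0.05, and *Acta2* lies lowest at -1.27, followed by *Abcc9* at -0.98.

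Markers of cells that the kidneys could hold were read beside these values. Of 12 stromal markers, all tested, 9 were lower and 3 higher. Their summed signal ran from 16220 to 18400 in mutants, under the 19590 to 20740 of controls, but the brightest genes weigh most in such a sum. *Penk*, *Lum* and *Col3a1* had all mutants below all controls, as had 8.23% of all tested genes. Their log2 fold changes were -2.09, -0.78 and -0.51 (limma adjusted p = 0.32, 0.86 and 0.86). The other lower genes ran from -0.40 (*Dcn*) to -0.05 (*Meis2*), and *Pdgfra*, *Col1a1* and *Col1a2* were higher. Of 10 tested markers of pericytes and mesangium, 8 were higher and 2 lower, with sums of 1721 to 2230 in controls and 1710 to 2408 in mutants, and *Kcnj8*, *Heyl* and *Itga8* of this list also stood on the lists above. *Rgs5* and *Pdgfrb* had all mutants above all controls, as had 534 of 10474 tested genes, and *Kcnj8* had all mutants below. The log2 fold changes of *Rgs5* and *Pdgfrb* were 0.48 and 0.33 (limma adjusted p = 0.86 for each). Endothelial markers summed to 6350 to 6937 in controls and 5182 to 6932 in mutants, with 7 of 9 lower. Striated muscle markers, of which 6 were tested, summed to 411.2 to 646.5 in controls and 231.6 to 1004 in mutants, and *Myl1* of fast muscle was higher by 3.21 in the litter 2 mutant. Urothelial markers summed to 287.6 to 393.4 and 222.5 to 402.5, with 5 of 6 lower. None of 7 adrenal markers passed the filter, with all 7 annotated. Kidney identity markers gave sums of 5197 to 5862 in controls and 5412 to 5843 in mutants over 12 tested genes, among them *Six2* and *Ret*, while *Pax2*, *Calb1*, *Nphs1* and *Aqp2* were not detected on enough arrays. Of the 12, 7 were lower and 5 higher, and *Eya1* had a log2 fold change of 0.60 (SE 0.25, limma adjusted p = 0.86). The part of these markers in the *Acta2* and *Myl9* values was not tested. *Dicer1* and *Foxd1* had log2 fold changes of -0.33 (SE 0.21) and -0.32 (SE 0.20), both lower in every litter, and the sources used here do not say whether a *Dicer1* probe lies in the floxed part.

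The mean profile of the 7 tested genes over the 6 arrays, each gene standardised first, correlated with *Myl9* at r = 0.898, *Acta2* at 0.699, *Tpm2* at 0.642, *Myh11* at 0.630, *Smtn* at 0.417, *Mylk* at -0.09 and *Cald1* at -0.32. Each of these genes is part of the mean it was compared with. The 5 other genes most like this profile were *Cox4i1*, *Mta2*, *Rbmx*, *Slf1* and *Pmm1*, with r from 0.98 to 0.995. These correlations are descriptions over 6 arrays, among which shared brightness and litter also vary, and high values are easily reached among 10474 genes.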

How the data were processed

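Genotype and litter of the 6 arrays were read from their titles. The authors deposited an intensity per probe, the average over its beads, neither normalized nor background-subtracted. The deposited detection p-value rates that signal against the negative control beads. The authors also deposited log2 values in the series matrix, whose medians were 7.23 to 7.24. The sources used here do not name their transformation, though higher was brighter. The study's methods name lumi and limma, litter in the model and *B* above 0.

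Of 45281 entries, 2 were blank and 2 repeated. Of the 45277 usable probes, 34881 had 1 gene, 18 had several and 10378 were unnamed here. Signals were normexp corrected from the detection p-values (neqc, offset 16), quantile normalized and put on log2. The 18639 probes detected (p-value under 0.05) on 3 or more arrays entered limma with litter and genotype (prior share 0.01) and Benjamini-Hochberg adjustment over all of them. A gene was represented by its brightest tested probe. The pools of a litter are separate embryos, and deviations from the genotype means correlated at -0.29, -0.02 and -0.12 across probes within litters 1, 2 and 3. The litter number is a block because the labels state a shared litter. Precision is limited by the 6 arrays (the median SE of log2 fold changes was 0.22).

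The members and lists were chosen with earlier results of these data known. Named were every probe of the 10 genes and the genes of the related lists with an unadjusted p under 0.05 in limma. Direct relatives or known regulators were also named, as were *Dicer1*, *Foxd1* and *Xist* as checks and the 5 genes with the most similar profile. Added after their values were seen were *Des*, *Vcl*, *Csrp1*, *Gucy1a1*, *Gucy1b1*, *Actg2*, *Myl1*, *Eya1*, *Eif2s3y*, *Kdm5d*, *Rgs5*, *Pdgfrb* and the other named stromal markers. Genes of the related lists named for a CArG box were added then as well. The comparison of arrays with like *Xist* level was also added then. The scripts were tested on simulated data. Arrays of E18.5 kidneys were not used here. Promoters came from RefSeq. Python 3.11.15 with matplotlib 3.10.9 and R 4.3.3 with limma 3.58.1 were used, and tables were read with version 1.17.8 of data.table.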

Additional observations from a re-analysis of the deposited data

How the results depend on the processing

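The *Acta2* log2 fold change was negative under all 15 other settings, from -1.59 (arrays scaled to one median) to -0.96 (without litter 3). It reached *B* above 0 in 3 of them, so that 1 of the 7 genes was called, namely with arrays scaled to one median, with an intensity trend (adjusted p = 0.115 from limma) and with array weights (-1.15, adjusted p = 0.0529 from limma). The adjusted p of *Acta2* over the 15 settings ran from 0.000187 to 1. The lowest came with arrays scaled to one median, where each of the 7 genes had the same SE of 0.298. *Myl9* (-0.81 to -0.28), *Mylk* (-0.63 to -0.04) and *Cald1* (0.11 to 0.69) also kept their sign in 15 of 15. Without the replicate block the adjusted p of *Acta2* was 0.378, and the count of probes with *B* above 0 was 34. That count was 10 with litter as a random replicate block, 5 with no background correction, 117 with arrays scaled to one median, 3 with an offset of 50, 18 with an intensity trend, 249 with array weights, 10 with *Xist* as a covariate and 0 to 35 with a litter left out (33, 35 and 0 without litters 1, 2 and 3).

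The count of the 7 genes lower with an unadjusted p under 0.05 was 2 in place of 1 with no replicate block, a random replicate block, no background correction, the series-matrix values, arrays scaled to one median, an offset of 50, the strict filter, an intensity trend, array weights, *Xist* as a covariate and the mean of a gene's probes, and 1 to 2 with a litter left out. The second gene was *Myl9*, or *Mylk* with array weights and without litter 1. The strict filter left 6 genes tested. *Cald1* was higher with an unadjusted p under 0.05 in limma with array weights (0.45) and without litter 1 (0.69). Lower in every remaining litter were 2 to 5 genes, 5 of them without litter 2. The median of the 7 genes turned to 0.0315 with array weights and ran from -0.24 to -0.07 with a litter left out. It was -0.11 with the series-matrix values or no background correction, -0.12 with *Xist* as a covariate, -0.15 with the mean of probes and -0.43 with arrays scaled to one median. With no filter on dim probes the median was -0.11 over 10 genes. *Myh11* turned to 0.21 with array weights and ran from -0.68 to 0.075 with a litter left out (0.075 without litter 1). *Smtn* turned to -0.23 with arrays scaled to one median, -0.019 with *Xist* as a covariate and -0.15 with the mean of its probes, and ran from -0.10 to 0.14 with a litter left out (-0.10 without litter 2). *Tpm2* turned to 0.0315 with array weights and ran from -0.24 to 4e-04 with a litter left out (4e-04 without litter 3). The cause of these changes was not tested. Signals near background limit *Myh11*, *Myocd* and the 3 untested genes.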
